A study of Arabidopsis thaliana with 18 samples.

Results

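The genes described are 10 genes of Arabidopsis thaliana that act in the handling of foreign and reactive molecules: the UDP-glycosyltransferases UGT74E2 (AT1G05680), UGT73B4 (AT2G15490), UGT73B5 (AT2G15480) and UGT75B1 (AT1G05560), the vacuolar transporter ABCC3 (AT3G13080), the reductases OPR1 (AT1G76680) and OPR2 (AT1G76690), the cytochrome P450 CYP81D8 (AT4G37370), the alternative oxidase AOX1A (AT3G22370) and UPOX (AT2G21640), a gene named for its upregulation by oxidative stress. They are 10 of the 22093 loci in the deposited table of read counts, taken by locus identifier. They were selected on values of these same libraries, and as no record says which contrast chose each gene, every contrast counts as used, so their levels and differences are descriptions and nothing about a member is tested. Where a fit's threshold is used, the number of members past it stands beside the share of all genes past it, and nothing is read from that number.

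The data are 18 libraries of root tips from 7-day-old seedlings, made with a kit that reads the 3′ ends of transcripts. L-Kyn is L-kynurenine, which inhibits the TAA1 family of enzymes in auxin synthesis from tryptophan, and tips received 100 µM of it for 3 h or 6 h. Tips were left uncut or cut 120 µm above the quiescent centre (QC). The 7 groups were mock uncut (n = 3, with no time given), L-Kyn uncut 3 h (n = 3), L-Kyn uncut 6 h (n = 2), mock cut 3 h (n = 3), mock cut 6 h (n = 2), L-Kyn cut 3 h (n = 2) and L-Kyn cut 6 h (n = 3). The labels give no genotype or line for any group, and they do not say whether L-Kyn came before, at or after the cut. Mock uncut tips form a single group, so both L-Kyn times in uncut tips are set against the same 3 mock uncut libraries. Whether replicates are separate pools of seedlings is not said in the labels, and the spread between libraries may be technical. In whole tips, fewer cells of a type and less RNA per cell cannot be told apart.

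The libraries hold 1280947 to 4839810 reads on genes. Levels are given in CPM, the reads of a gene scaled to library size with edgeR's TMM factors, and 3 counts, taken as the floor, equal 0.620 to 2.34 CPM. By the order of the table's columns the libraries fall into 2 sets of 9, called A and B here. Set A holds all libraries of the 6 h groups together with mock uncut replicates 1 and 2, and in set B are all libraries of the 3 h groups plus the third mock uncut replicate. Summed levels of 6 genes of green tissue followed these sets, at 35.0 to 291 CPM in set A and 1.05 to 9.10 CPM in set B. L-Kyn cut 3 h replicate 2 stands apart from its group. Its Spearman correlation over genes with the other library of its group was 0.879, and with the 3 libraries of L-Kyn uncut 3 h tips it was 0.940 to 0.975. Root cap genes (5 of them) summed to 165.5 CPM in it and to 4.63 CPM in the other library. That library goes against its label, and results that rest on it are given with and without it. The library called L-Kyn uncut 6 h replicate 1 is uncut by its title and cut by its source field. The title was used. Its correlation with the other L-Kyn uncut 6 h library was 0.951, and 0.894 to 0.911 with those of L-Kyn cut 6 h.

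Plants handle foreign and reactive molecules in stages. Cytochrome P450s and reductases first alter a molecule, glycosyltransferases and glutathione transferases then attach a sugar or glutathione, and ABC transporters of the C class move the conjugate into the vacuole. Many genes of this programme respond to electrophiles and herbicides through TGA transcription factors and their partner SCL14, while AOX1A and UPOX are known as readouts of disturbed mitochondria, which signal to the nucleus through NAC factors such as ANAC017. Some of these enzymes also act on hormones, since UGT74E2 attaches glucose to indole-3-butyric acid, an auxin precursor, and UGT75B1 accepts the auxin indole-3-acetic acid.

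The bases just before the annotated start of each gene were searched for regulatory motifs, and bases farther upstream were not. The 250 bases upstream of each gene start were read from the RefSeq genome TAIR10.1, matched by locus identifier, because the count table holds no coordinates and the submitters' processing notes name TAIR10. TGACG, the core bound by TGA factors, was searched on both strands and was found upstream of 2 of the 10 members, against 18.6% of 27438 genes. The glycosyltransferase genes UGT73B4 and UGT73B5 carry it, shown here in capitals (CGTCA is the same motif on the other strand):

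UGT73B4 (chr2:6761385-6761634, plus strand): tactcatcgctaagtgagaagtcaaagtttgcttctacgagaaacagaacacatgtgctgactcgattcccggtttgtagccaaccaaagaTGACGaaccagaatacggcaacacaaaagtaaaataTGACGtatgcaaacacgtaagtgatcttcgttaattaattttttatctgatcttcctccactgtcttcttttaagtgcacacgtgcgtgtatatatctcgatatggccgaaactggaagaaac

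UGT73B5 (chr2:6758180-6758429, plus strand): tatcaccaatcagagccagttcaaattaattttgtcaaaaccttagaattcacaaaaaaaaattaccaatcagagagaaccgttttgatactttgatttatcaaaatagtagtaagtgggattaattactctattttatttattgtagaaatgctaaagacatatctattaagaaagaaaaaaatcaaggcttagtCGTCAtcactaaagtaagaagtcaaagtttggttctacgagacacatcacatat

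In UGT73B4 the 2 matches lie 159 to 155 and 123 to 119 bases before the start, and in UGT73B5 the match lies 54 to 50 bases before it. The mitochondrial dysfunction motif (CTTG, any 5 bases, CA, any base, G, on either strand), to which ANAC017 and related NAC factors bind, was likewise found upstream of 2 members, against 1.75% of genes. These are CYP81D8 and UPOX, with the match in capitals:

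CYP81D8 (chr4:17571744-17571993, minus strand): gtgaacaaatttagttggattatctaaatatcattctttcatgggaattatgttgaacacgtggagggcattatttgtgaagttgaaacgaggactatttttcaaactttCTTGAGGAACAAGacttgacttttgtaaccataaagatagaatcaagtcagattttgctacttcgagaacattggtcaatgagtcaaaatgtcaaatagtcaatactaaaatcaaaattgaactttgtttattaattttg

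UPOX (chr2:9254128-9254377, plus strand): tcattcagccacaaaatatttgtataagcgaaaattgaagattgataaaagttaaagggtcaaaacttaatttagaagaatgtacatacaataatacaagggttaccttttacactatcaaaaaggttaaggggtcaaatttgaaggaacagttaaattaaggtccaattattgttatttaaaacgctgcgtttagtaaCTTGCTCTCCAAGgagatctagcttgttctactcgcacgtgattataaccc

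It lies 140 to 128 bases before the start of CYP81D8 and 51 to 39 bases before that of UPOX. The G-box CACGTG was found upstream of UGT73B4, CYP81D8 and UPOX, 3 of the 10 members against 6.49% of genes. No match overlapped another, no match was found in these windows of the other 6 members, and a match or its absence says nothing of whether a factor binds.

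The 2 UGT73B genes, like the 2 OPR genes, are neighbouring copies, and their counts may not be separate. The annotated transcripts of UGT73B5 and UGT73B4 share 255 exon bases, because a second transcript of UGT73B5 ends in the last exon of UGT73B4, and those of OPR1 and OPR2 share 216 exon bases. Identity between messages was 71.7% for the glycosyltransferases and 67.6% for the reductases, falling to 51.1% and 46.8% over the last 300 bases, where this kit reads. The upstream sequences of the OPR genes, with the longest run they share in capitals, are shown for comparison:

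OPR1 (chr1:28776376-28776625, plus strand): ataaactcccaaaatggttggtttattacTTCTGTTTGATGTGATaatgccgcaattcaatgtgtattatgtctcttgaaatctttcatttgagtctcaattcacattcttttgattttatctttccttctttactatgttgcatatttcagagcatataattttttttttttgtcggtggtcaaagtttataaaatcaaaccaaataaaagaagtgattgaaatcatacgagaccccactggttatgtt

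OPR2 (chr1:28778372-28778621, plus strand): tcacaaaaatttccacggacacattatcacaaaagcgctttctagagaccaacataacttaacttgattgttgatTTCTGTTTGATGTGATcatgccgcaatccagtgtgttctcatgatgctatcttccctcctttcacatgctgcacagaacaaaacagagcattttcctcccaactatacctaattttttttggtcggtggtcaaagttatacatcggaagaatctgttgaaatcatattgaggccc

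That run of 16 bases lies 221 to 206 bases before the start of OPR1 and 175 to 160 bases before that of OPR2, and the upstream windows are 52.3% identical. UGT73B5 and UGT73B4 share a run of 15 bases, at 38 to 24 and at 234 to 220 bases before the start, in windows that are 46.6% identical. Reads on UGT73B5 per read on UGT73B4 ran only from 1.37 to 1.66 over the 18 libraries, with a median of 1.51. The OPR1 to OPR2 ratio was wider, from 2.19 to 4.71 with a median of 3.27. Ambiguous reads stand in a line of their own, at 0.0918% to 0.329% of a library's total, and were left out. How far the ratios reflect shared reads or like expression was not tested. Values of UGT73B4 and UGT73B5, and to a lesser degree of OPR1 and OPR2, are thus uncertain as values of separate genes. Each gene counts as a member of its own below, so the genes of a pair may not be separate cases in those counts.

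**Figure D1:**
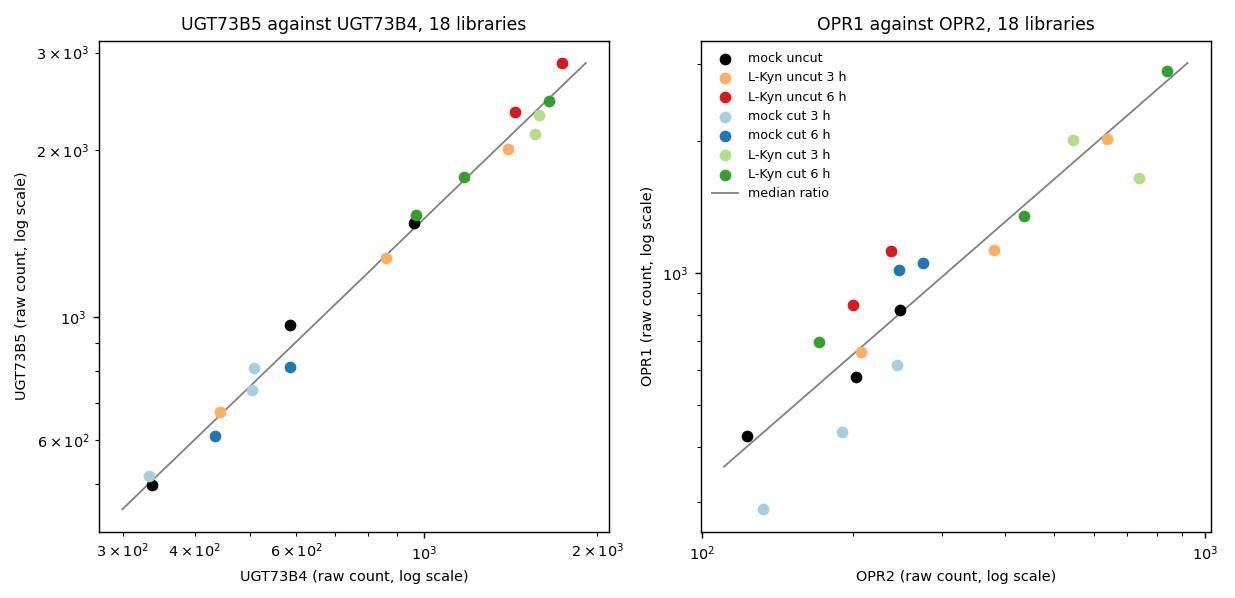
Raw read counts of UGT73B5 against UGT73B4 and of OPR1 against OPR2 on log axes, with a point for each of the 18 libraries coloured by group and a grey line at the median ratio. The glycosyltransferase points keep close to the line, with a ratio between 1.37 and 1.66, while the reductase ratio runs from 2.19 to 4.71.

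UGT74E2 had the widest range on the log2 scale among the 4 glycosyltransferases. In mock uncut tips it stood at 115.2, 93.2 and 40.6 CPM in replicates 1 to 3. L-Kyn uncut 3 h tips gave 89.9, 367 and 214.7 CPM, and L-Kyn uncut 6 h tips 282.5 and 397.5 CPM. Both 6 h libraries lay above every mock uncut library, whereas L-Kyn uncut 3 h replicate 1 lay inside the mock range. Cut tips with mock gave 79.6, 59.2 and 41.8 CPM at 3 h and 117.0 and 105.2 CPM at 6 h. With L-Kyn, cut tips gave 61.4 and 159.7 CPM at 3 h and 459.1, 829.6 and 521.3 CPM at 6 h. The L-Kyn cut 6 h libraries were the highest of all 18 and did not overlap with mock cut 6 h, and the higher value at 3 h is that of the library that stands apart. Against mock the fitted log2 difference, with its standard error from the edgeR fit of all 18 libraries, was 1.42 ± 0.47 in uncut tips at 3 h, 2.03 ± 0.50 in uncut tips at 6 h, 0.87 ± 0.51 in cut tips at 3 h and 2.44 ± 0.56 in cut tips at 6 h. Without L-Kyn cut 3 h replicate 2, and within set B, the value in cut tips at 3 h was 0.04 ± 0.60. The order of group means was L-Kyn cut 6 h (603.3 ± 198.4 CPM, SD), L-Kyn uncut 6 h (340.0 ± 81.4), L-Kyn uncut 3 h (223.9 ± 138.8), mock cut 6 h (111.1 ± 8.31), L-Kyn cut 3 h (110.6 ± 69.5), mock uncut (83.0 ± 38.4) and mock cut 3 h (60.2 ± 18.9), in which L-Kyn cut 6 h did not overlap with the group after it and every other group overlapped with the next.

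UGT73B4 and UGT73B5, glycosyltransferases that conjugate small phenolic molecules and are known to respond to hydrogen peroxide and pathogens, moved together. UGT73B4 stood at 292.0, 269.9 and 108.9 CPM in mock uncut tips, 242.9, 335.9 and 292.7 CPM in L-Kyn uncut 3 h tips and 486.0 and 499.0 CPM in L-Kyn uncut 6 h tips. Its cut tips with mock gave 153.3, 303.6 and 282.7 CPM at 3 h and 267.2 and 264.6 CPM at 6 h. With L-Kyn they gave 333.1 and 322.3 CPM at 3 h and 394.7, 742.5 and 563.0 CPM at 6 h. All 5 libraries with 6 h of L-Kyn, of set A, were above all 8 mock libraries, which are of both sets. The share of all genes with that order was not counted. Mock uncut replicate 3, of set B, was the lowest of the 18. UGT73B5 was likewise lowest in that library, at 160.5 CPM, and highest in L-Kyn cut 6 h replicate 2, at 1169 CPM. At 6 h of L-Kyn the log2 differences were 1.14 ± 0.38 for UGT73B4 and 1.2 ± 0.39 for UGT73B5 in uncut tips, and 1.09 ± 0.39 and 1.23 ± 0.41 in cut tips. Within set A, which leaves out mock uncut replicate 3, the values in uncut tips were 0.81 ± 0.32 and 0.85 ± 0.33. At 3 h of L-Kyn the values from all libraries lay between 0.29 and 0.41 in uncut and cut tips.

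UGT75B1, which also transfers glucose to benzoates and joins the cell plate in dividing cells, had lower counts. Mock uncut tips gave 44.0, 32.3 and 25.1 CPM, L-Kyn uncut 3 h tips 56.3, 72.8 and 58.4 CPM and L-Kyn uncut 6 h tips 68.2 and 28.2 CPM. Cut tips with mock gave 19.8, 37.4 and 21.2 CPM at 3 h and 34.5 and 42.5 CPM at 6 h, and cut tips with L-Kyn gave 41.9 and 42.1 CPM at 3 h and 72.2, 157.5 and 94.5 CPM at 6 h. The L-Kyn libraries lay above their mock libraries in uncut tips at 3 h and in cut tips at both times, and at 6 h in uncut tips the groups overlapped, as replicate 2 sat inside the mock range. The log2 difference was 0.88 ± 0.36 in uncut tips at 3 h, 0.51 ± 0.40 in uncut tips at 6 h, 0.69 ± 0.41 in cut tips at 3 h and 1.48 ± 0.43 in cut tips at 6 h.

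ABCC3, an ABC transporter of the C class that can carry glutathione conjugates and chlorophyll catabolites, differed both with the cut and with L-Kyn. It stood at 26.7, 36.5 and 20.3 CPM in mock uncut tips and at 17.8, 34.9 and 25.5 CPM in L-Kyn uncut 3 h tips, groups that overlap. L-Kyn uncut 6 h tips gave 103.9 and 179.1 CPM, the highest of all libraries. Cut tips with mock gave 12.0, 9.05 and 3.90 CPM at 3 h and 6.77 and 9.94 CPM at 6 h, each below the lowest mock uncut library. With L-Kyn, cut tips gave 8.21 and 34.1 CPM at 3 h and 55.7, 62.7 and 54.2 CPM at 6 h. The 6 h libraries lay far above mock cut 6 h but below L-Kyn uncut 6 h, and at 3 h replicate 1 was within the range of the mock cut 3 h libraries. L-Kyn at 6 h thus went with a log2 difference of 2.35 ± 0.47 in uncut tips (a 5.11-fold higher level) and 2.76 ± 0.57 in cut tips (6.77-fold). Cutting went with −1.72 ± 0.48 at 3 h and −1.71 ± 0.55 at 6 h in mock tips, and with −1.30 ± 0.46 at 6 h under L-Kyn. The value for L-Kyn in cut tips at 3 h, 1.33 ± 0.51, rested on the library that stands apart, since without it and within set B it was −0.02 ± 0.61. The summed level of the 5 root cap genes moved with the cut in the same libraries, at 46.6 to 269.9 CPM in mock uncut tips against 3.02 to 11.1 CPM in mock cut tips, where FEZ was at 0 in every 3 h library, and its part in the ABCC3 difference was not tested. At 6 h in cut tips the root cap sums were 5.35 to 12.7 CPM with L-Kyn and 3.69 to 10.8 CPM with mock. Their part in the ABCC3 difference with L-Kyn was not tested either.

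OPR1 and OPR2, flavin reductases that act on unsaturated carbonyl compounds and, unlike OPR3, are not the main enzymes of jasmonate synthesis, followed another course. OPR1 stood at 250.2, 195.7 and 186.5 CPM in mock uncut tips, 318.7, 501.3 and 422.0 CPM in L-Kyn uncut 3 h tips and 378.6 and 243.2 CPM in L-Kyn uncut 6 h tips. In cut tips with mock it gave 284.0, 174.5 and 242.0 CPM at 3 h and 626.1 and 476.9 CPM at 6 h. In cut tips with L-Kyn it gave 346.2 and 414.4 CPM at 3 h and 690.4, 533.0 and 645.0 CPM at 6 h. The 5 libraries of cut tips at 6 h were high whether or not L-Kyn was present, and mock and L-Kyn overlapped there. Cutting went with an OPR1 log2 difference of 1.39 ± 0.31 at 6 h in mock tips and 1.00 ± 0.32 under L-Kyn, while L-Kyn in cut tips at 6 h went with 0.18 ± 0.31. In uncut tips the OPR1 difference with L-Kyn was 0.97 ± 0.28 at 3 h and 0.56 ± 0.31 at 6 h.

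OPR2 gave 74.9, 56.8 and 65.1 CPM in mock uncut tips, 107.5, 157.0 and 133.3 CPM in L-Kyn uncut 3 h tips and 80.3 and 57.5 CPM in L-Kyn uncut 6 h tips. The 3 h libraries were all above mock, and the 6 h libraries overlapped with it. The cut gave 112.3, 79.7 and 105.9 CPM at 3 h and 151.4 and 124.2 CPM at 6 h with mock, and 155.1 and 112.6 CPM at 3 h and 200.5, 130.8 and 209.1 CPM at 6 h with L-Kyn. Log2 differences were 1.01 ± 0.28 for L-Kyn at 3 h and 0.07 ± 0.31 at 6 h in uncut tips, and 1.07 ± 0.31 and 1.39 ± 0.33 for the cut at 6 h in mock and L-Kyn tips.

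CYP81D8, a cytochrome P450 often used as a marker of the response to electrophiles, was near the floor of these libraries. Its counts over a whole group ran from 0 in mock cut 3 h to 27 in L-Kyn uncut 6 h, with levels of 0 to 5.06 CPM per library, and it did not pass edgeR's expression filter in the fit of all libraries. The L-Kyn uncut 6 h libraries had 5.06 and 3.45 CPM and the mock uncut libraries 3.64, 1.38 and 0 CPM, which overlap. No fold is given for it.

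AOX1A, the stress-responsive alternative oxidase of the mitochondrial inner membrane, gave 50.6, 60.0 and 30.6 CPM in mock uncut tips. It was at 38.5, 41.7 and 54.0 CPM after 3 h and at 76.3 and 165.3 CPM after 6 h of L-Kyn in uncut tips. Cut tips with mock gave 21.6, 39.8 and 57.4 CPM at 3 h and 69.0 and 59.2 CPM at 6 h, and cut tips with L-Kyn 60.6 and 57.8 CPM at 3 h and 120.8, 105.5 and 101.7 CPM at 6 h. As with UGT73B4, each of the 5 libraries with 6 h of L-Kyn lay above all 8 mock libraries. The log2 difference for L-Kyn at 6 h was 1.36 ± 0.38 in uncut and 0.77 ± 0.40 in cut tips, and at 3 h it was −0.07 ± 0.35 and 0.58 ± 0.39. The higher of the uncut libraries was L-Kyn uncut 6 h replicate 2.

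UPOX, which encodes a mitochondrial protein of oxidative stress, was the weakest of the 9 members in the fit, with 0 to 32 counts per library. It was highest in mock cut 3 h replicate 1, at 14.7 CPM, where the other 2 libraries of the group had 2.41 and 2.23 CPM. Mock uncut tips had 5.16, 0 and 0.64 CPM and L-Kyn uncut tips 3.45 to 6.75 CPM over both times. L-Kyn cut 6 h libraries, at 3.59, 3.82 and 1.44 CPM, lay below the mock cut 6 h libraries at 6.16 and 8.13 CPM, with a log2 difference of −1.27 ± 0.91. It was the only member of the 9 that was lower with L-Kyn in cut tips at 6 h.

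**Figure D2:**
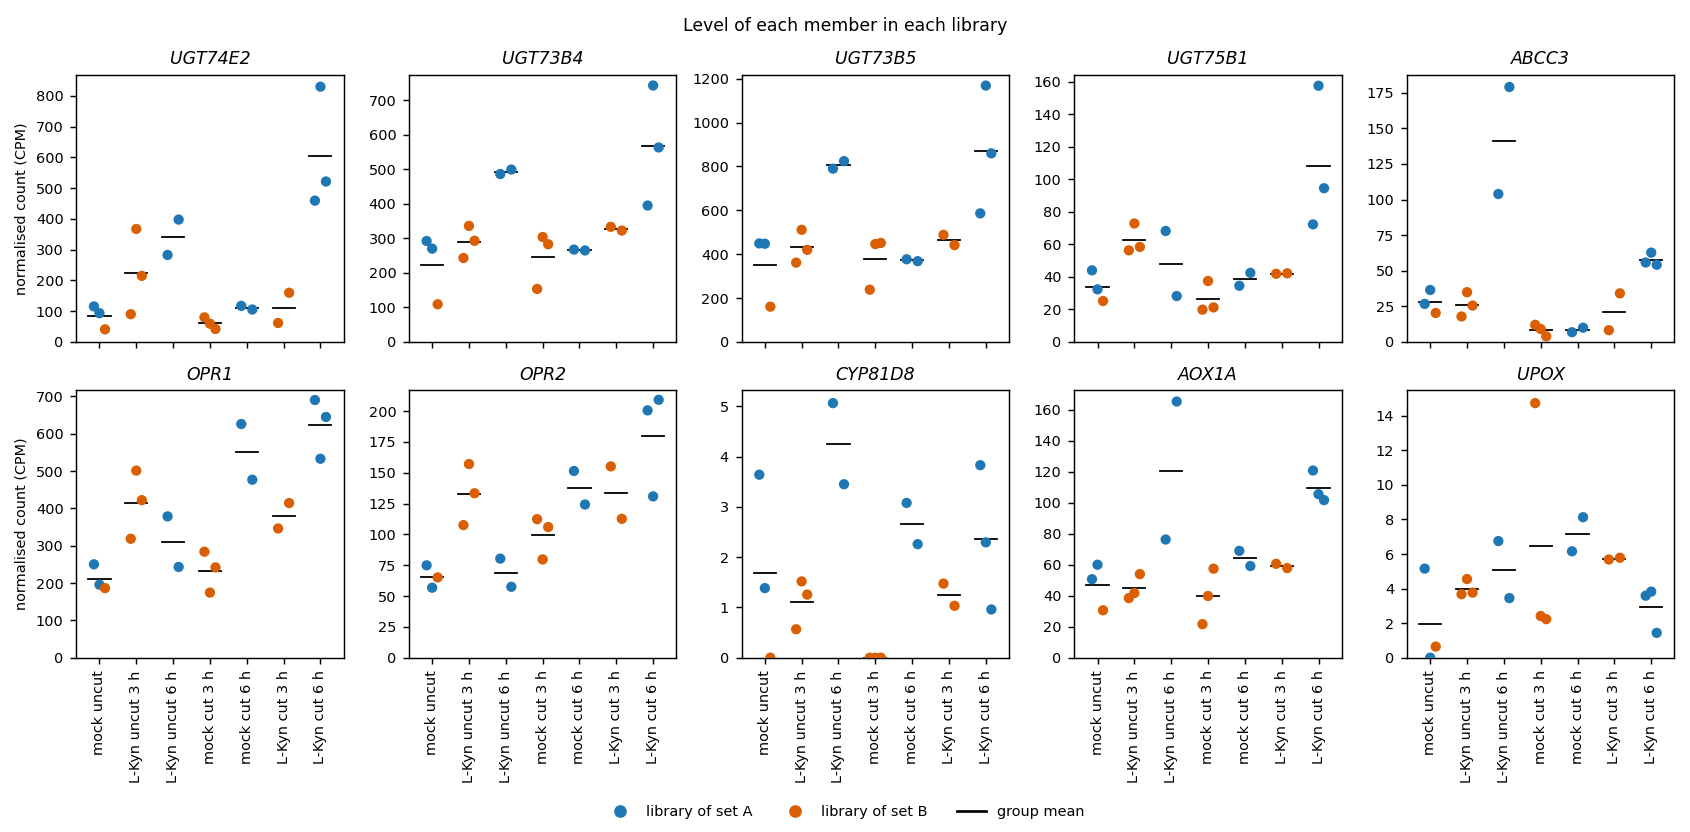
Level of each of the 10 genes in CPM, on linear axes that differ between genes, with a point for each library coloured by set and a bar at each group mean. All genes but UPOX have their highest group mean in uncut or cut tips with 6 h of L-Kyn, CYP81D8 near the floor. OPR1 and OPR2 are also high in mock cut 6 h tips.

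In uncut tips, 6 h of L-Kyn went with higher levels of all 9 members that passed the filter. Their log2 differences ran from 0.07 for OPR2 to 2.35 for ABCC3 with a median of 1.2, where the median of all 16354 genes in the fit was −0.02. The L-Kyn libraries lay above all mock libraries for 5 of the 10 members, against 12.2% of genes. A gene was called when its Benjamini-Hochberg adjusted p in edgeR's quasi-likelihood test was below 0.05. In the fit of all libraries 0.0% of genes were called and 0 of the 9 members, while 1393 genes had an unadjusted p under 0.05 and DESeq2 called 58 genes (0.403%), 2 of them members. No member lay below all mock libraries, against 11.4%. Within set A, where no mock library comes from the other set, 0.284% of genes and 1 member, ABCC3, were past the threshold. The values there were 2.17 ± 0.35 for ABCC3, 1.70 ± 0.35 for UGT74E2 and 1.13 ± 0.35 for AOX1A. ABCC3 was not past it without mock uncut replicate 1 (1.94) or 2 (2.41) or L-Kyn uncut 6 h replicate 2 (1.72).

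After 3 h of L-Kyn in uncut tips, the fit of all libraries gave positive log2 differences for 7 of the 9 members and values of −0.11 ± 0.44 for ABCC3 and −0.07 ± 0.35 for AOX1A, with a median of 0.88 against −0.05 for all genes. Within set B all 9 were positive, with ABCC3 at 0.34 ± 0.73 and AOX1A at 0.55 ± 0.52, so the direction of these 2 genes turned with the fit. The 3 members whose L-Kyn libraries lay above all mock libraries were OPR1, OPR2 and UGT75B1, against 7.61% of genes. The fit of all libraries called 0.0% of genes and 0 members, while 1480 genes had an unadjusted p under 0.05 and DESeq2 called 125 (0.757%), 1 of them a member. Without mock uncut replicate 3 the fit called 452 genes, 117 higher and 335 lower, and 0 members. No member lay below all mock libraries (7.87% of genes). Within set B the contrast has 1 mock library, mock uncut replicate 3, which was the lowest of the 18 for UGT74E2, UGT73B4 and UGT73B5. There the UGT74E2 difference was 2.46 ± 0.78 and the UGT73B4 difference 1.42 with no member and 0.0117% of genes called (0.0182% without L-Kyn cut 3 h replicate 2), and without that mock library the median of the members in the fit of all libraries was 0.47.

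In cut tips, 6 h of L-Kyn went with higher levels of 8 of the 9 members and a lower level of UPOX, with a median of 1.09 against −0.01 for all genes. L-Kyn libraries lay above all mock libraries for 6 of the 10 members, against 16.4% of genes, and below them for UPOX, against 19.0%. The fit of all libraries called 0.0% of genes and 0 members, with 1263 genes at an unadjusted p under 0.05, and DESeq2 called 54 genes (1.0% of those it tested), 3 of them members. Within set A 0.373% of genes and 2 members were past the threshold, ABCC3 at 2.80 ± 0.38 and UGT74E2 at 2.49 ± 0.34. Neither was past it without mock cut 6 h replicate 1 (2.59 for ABCC3 and 2.58 for UGT74E2) or 2 (3.09 and 2.38). UGT75B1 was at 1.52 ± 0.41 there, UGT73B4 at 1.14 ± 0.31 and UGT73B5 at 1.28 ± 0.32.

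At 3 h in cut tips the L-Kyn libraries lay above all mock libraries for 5 of the 9 members in the fit (UGT73B4, UGT75B1, OPR1, OPR2 and AOX1A), against 9.18% of genes, and below them for none (6.37%). Without the library that stands apart UGT73B5 also lay above them. CYP81D8, with 1.47 and 1.03 CPM against 0 in each mock library, is not counted, as the mock floors there are 1.40 to 1.74 CPM. The median with L-Kyn was 0.58 (all genes 0.01), and 0.43 without the library that stands apart and within set B. The largest values with both libraries, those of ABCC3 and UGT74E2, were near 0 without it, and UGT75B1 (0.69), OPR2 (0.65), AOX1A (0.62) and OPR1 (0.57) were then the highest. No gene was called in either fit (0.0%), with 1282 genes at an unadjusted p under 0.05 in the fit of all libraries and 26 calls by DESeq2 (0.143%). Without L-Kyn cut 3 h replicate 1, which leaves the library that stands apart alone in its group, 386 genes and 1 member, ABCC3, were called.

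Cutting in mock tips separated ABCC3 from the reductases. At 3 h ABCC3 was at −1.72 ± 0.48 and was the 1 member past the threshold, in a comparison that called 9.89% of genes (12.0% by DESeq2, again with 1 member). It was not past it without mock uncut replicate 1 (−1.75) or 2 (−1.49) or mock cut 3 h replicate 2 (−1.78) or 3 (−1.40). Within set B, where 0.0117% of genes were called (3.25% without L-Kyn cut 3 h replicate 2), the value was −1.29 ± 0.71 and 0 members were called. UPOX was at 1.66 ± 0.83. Without mock uncut replicate 1, which left UPOX counts of 0 and 2 in mock uncut tips, it was at 4.01 and was the member past the threshold. Fits of this comparison with 1 library left out called 557 to 2467 genes, and nothing is read from the UPOX call. The median of the members was 0.10, and their libraries lay apart for OPR2, which was higher (against 10.2% of genes), and for ABCC3, which was lower (against 12.6%). At 6 h OPR1 (1.39), OPR2 (1.07) and UPOX (1.78) lay above all mock uncut libraries, against 17.6% of genes, and ABCC3 below them, against 15.3%. There 0.0% of genes were called in the fit of all libraries, with 1594 at an unadjusted p under 0.05 and 46 (0.69%) called by DESeq2, 1 of them a member. Within set A 1.47% were called, and ABCC3 was the 1 member past the threshold, at −1.92 ± 0.40. It was not past it without mock uncut replicate 1 (−2.11) or 2 (−1.68), mock cut 6 h replicate 1 (−1.70) or 2 (−2.21), or L-Kyn cut 6 h replicate 3 (−1.90).

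Under L-Kyn at 6 h, cut tips had higher OPR2 (1.39 ± 0.33), UGT75B1 (1.16 ± 0.42), OPR1 (1.00 ± 0.32) and UGT74E2 (0.83 ± 0.52) than uncut tips, and lower ABCC3. The 4 higher genes and ABCC3 were the members whose libraries did not overlap, against 19.0% of genes higher and 20.3% lower. In the fit of all libraries 0.605% of genes and 0 members were called, and DESeq2 called 5.08%, with 2 members. Within set A 12.0% of genes and 3 members were past the threshold, OPR1 and OPR2 higher and ABCC3 lower. Without L-Kyn uncut 6 h replicate 2 none of these 3 was past it, at 0.73, 1.18 and −0.84. Nor was OPR1 without mock cut 6 h replicate 1 (1.02) or 2 (1.03) and without L-Kyn cut 6 h replicate 3 (0.99), and ABCC3 without the latter (−1.25). At 3 h the comparison has the library that stands apart in the cut group: UGT74E2 was at −1.01 ± 0.52 with it and −1.87 ± 0.67 without it and within set B, and ABCC3 at −0.28 ± 0.49 and −1.65 ± 0.63. AOX1A and UPOX lay above and UGT75B1 below all uncut libraries, against 8.83% of genes higher and 7.66% lower. The 3 h comparison called 0.0% of genes and no member, with 492 genes at an unadjusted p under 0.05 and 48 (0.27%) called by DESeq2, and 1.59% within set B without that library.

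Whether L-Kyn went with a different change in cut and in uncut tips was asked with the difference of the log2 differences. At 6 h this was 0.41 ± 0.71 for ABCC3, 0.41 ± 0.72 for UGT74E2, 0.97 ± 0.58 for UGT75B1 and −2.55 ± 1.28 for UPOX. No member was called at either time, nor was any other gene in the fit of all libraries (0.0%), with 419 genes at an unadjusted p under 0.05 at 6 h and 1568 at 3 h, and DESeq2 called 0 and 15. Within set A 0.00677% of genes and no member were called at 6 h. Without mock uncut replicate 3 the fit called 90 genes at 3 h, 70 higher and 20 lower, and no member. Values near 0 with such errors do not show that cut and uncut tips responded alike.

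**Figure D3:**
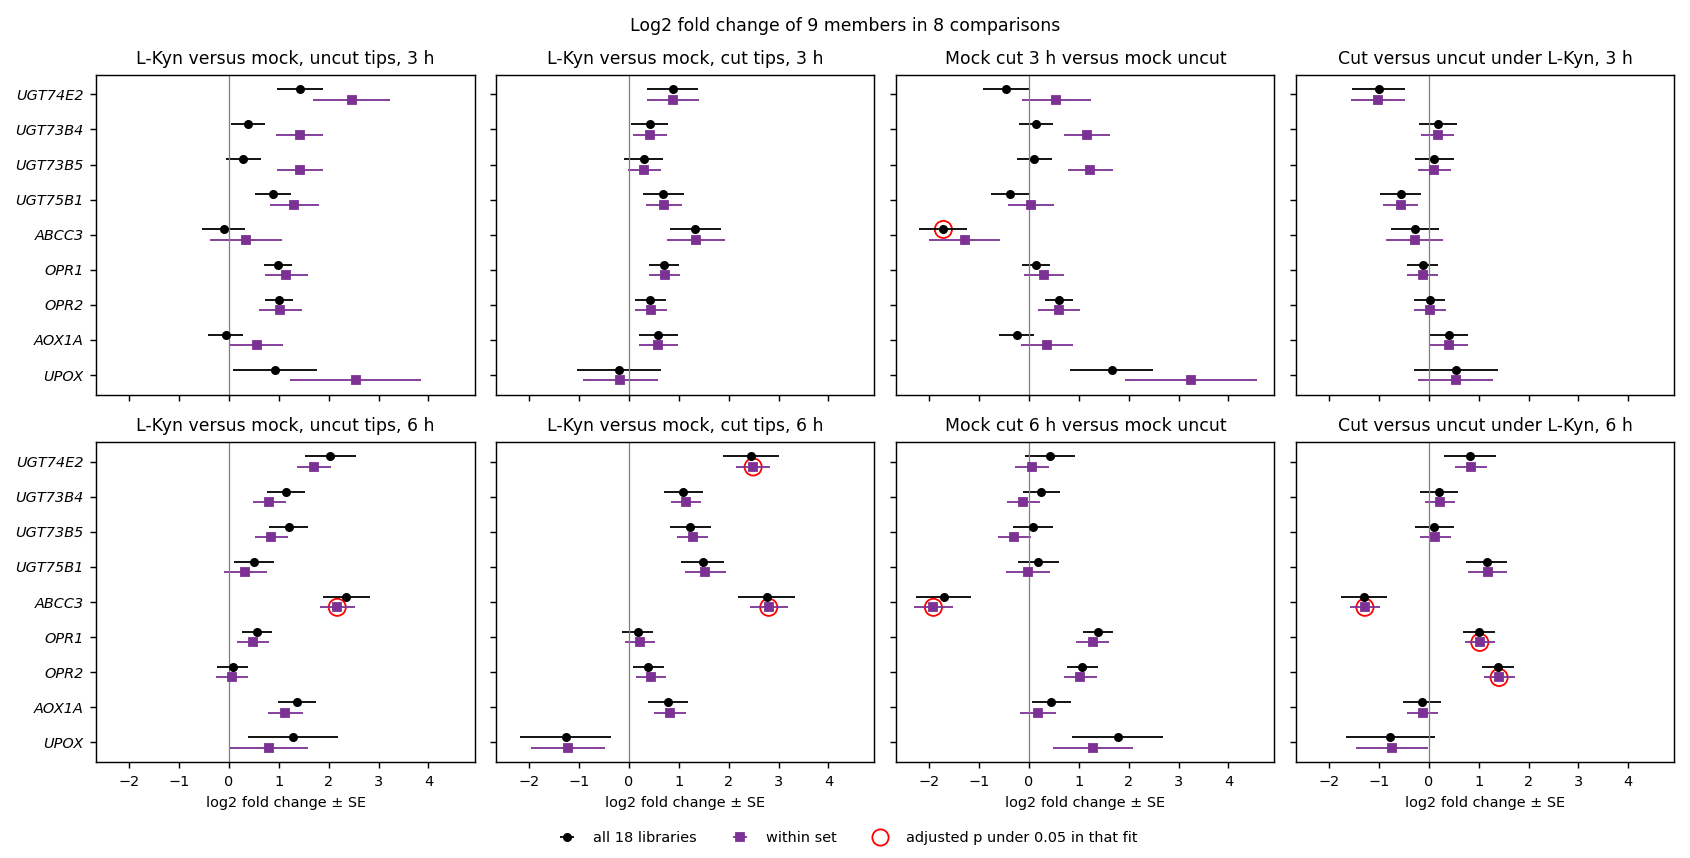
Log2 differences with standard errors of the 9 members in the fit, for L-Kyn against mock and for cut against uncut tips at each time, from all 18 libraries (black) and within a set (purple), with red rings where the adjusted p is under 0.05. ABCC3 is positive with L-Kyn at 6 h and negative with the cut in mock tips, and OPR1 and OPR2 are positive with the cut at 6 h.

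Across libraries, the members' shared course was summarised as the mean of their log2 CPM after each was centred on its own mean. It was lowest in mock uncut replicate 3, at −1.15, and highest in L-Kyn cut 6 h replicate 2, at 1.09. The 5 libraries with 6 h of L-Kyn ran from 0.55 to 1.09 and the 8 mock libraries from −1.15 to −0.09. Those with 3 h of L-Kyn, all of set B, ran from −0.27 to 0.38 and overlapped with mock libraries of set A only. Mock libraries of set B ran from −1.15 to −0.55, below every library with 3 h of L-Kyn. As the 3 h groups are in set B and the 6 h groups in set A, time and set cannot be told apart here. UGT74E2 lay closest to this mean, with a Pearson r of 0.961 over the 18 libraries, and UPOX farthest, at 0.259. Each member is part of the mean, and the libraries share sets and groups, so these are descriptions.

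**Figure D4:**
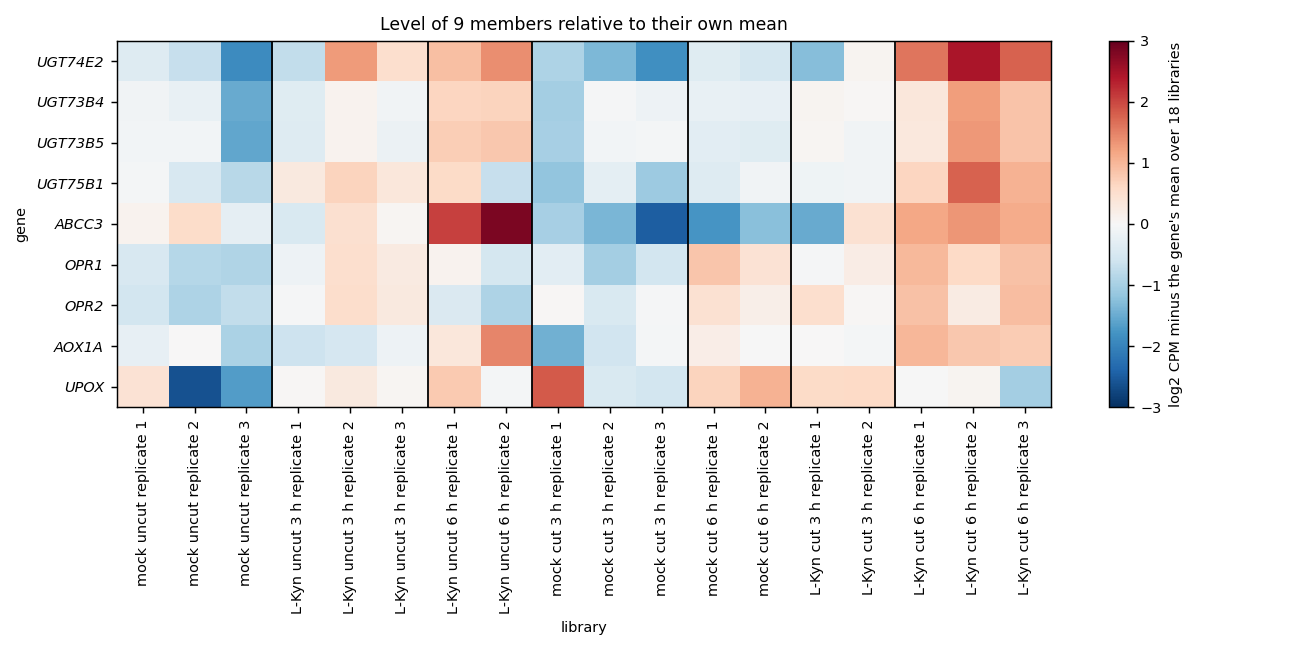
Log2 CPM of the 9 members, each centred on its own mean, in the 18 libraries ordered by group and then by replicate. UGT74E2 has its lowest value, −1.88, in mock uncut replicate 3 and its highest, 2.45, in L-Kyn cut 6 h replicate 2, and ABCC3 from −2.46 in mock cut 3 h replicate 3 to 2.82 in L-Kyn uncut 6 h replicate 2.

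Of 4837 other named genes with a mean of at least 10 CPM, 6 had a course most like that mean over the 18 libraries. ABCB4, an auxin transporter of the ABC family, came first at r = 0.938, with 74.5 ± 38.0 CPM in mock uncut (SD, n = 3), 250.5 ± 85.1 in L-Kyn uncut 6 h (n = 2), 85.8 ± 3.82 in mock cut 6 h (n = 2) and 299.7 ± 64.1 in L-Kyn cut 6 h tips (n = 3). The others were UGT73B3 (0.907) and UGT73B2 (0.873), close relatives of UGT73B4 and UGT73B5 whose reads may also be shared, CSLE1 (0.892), a cellulose synthase-like gene, and the tau glutathione transferases GSTU7 (0.879) and GSTU1 (0.862).

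Genes of the same families were counted in 10 lists, and none of their tested genes was called for L-Kyn at 6 h in the fit of all libraries, which called 0.0% of all genes in both contrasts, so nothing is read from that count. The lists were chosen with earlier results of these data known, and genes of the longer lists are named by their calls in these contrasts. Adjusted p-values of list genes, here and in the paragraphs below, are therefore descriptions. Of 55 other UGT genes in the table, 45 were tested, and 23 were positive with L-Kyn at 6 h in uncut tips (median 0.06) and 39 in cut tips (median 0.88). Within set A 0 of 39 were called in uncut tips (against 0.284% of all genes) and 2 of 39 were called higher in cut tips (against 0.373%). They were UGT87A2, from 8.62 and 7.68 CPM in mock cut 6 h to 27.0, 43.6 and 43.6 CPM in L-Kyn cut 6 h tips (2.25 ± 0.39, edgeR quasi-likelihood adjusted p = 0.0155), and UGT73B3 (1.40, edgeR adjusted p = 0.0418), which is named here because it was called. UGT87A2 was at an adjusted p of 0.405 in edgeR's fit of all libraries. Without mock cut 6 h replicate 1 (2.35) or 2 (2.14), or L-Kyn cut 6 h replicate 3 (2.09), its call within set A was lost, and that of UGT73B3 in 8 of 9 such fits (1.33 to 1.49).

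The MATE exporters of the DTX group showed the largest list medians, at 3.85 in uncut and 3.41 in cut tips with 6 h of L-Kyn over the 4 of 5 genes tested. Of these, DTX35 was well above the floor in mock tips and was not called, and fitted values of the other 3, which were near or below the floor there, depend on how the fit treats low counts. DTX1, a multidrug exporter of the plasma membrane, gave 2.73, 6.92 and 0.32 CPM in mock uncut and 14.5 and 73.6 CPM in L-Kyn uncut 6 h tips. It gave 3.69 and 1.81 CPM in mock cut 6 h and 21.8, 20.6 and 20.6 CPM in L-Kyn cut 6 h tips. Libraries with L-Kyn were above those with mock in each case. Within set A edgeR's test called DTX1 in uncut tips (3.26 ± 0.63, adjusted p = 0.0393) and missed it in cut tips (3.02 ± 0.71, adjusted p = 0.0724). AT2G04050 of the same list rose in both (adjusted p = 0.0279 and 0.0397 by edgeR), although mock cut 6 h tips had only 0.62 and 0.45 CPM, below the floor. The uncut calls of both genes were lost without mock uncut replicate 1 (2.66 for DTX1, 2.65 for AT2G04050) or 2 (4.01, 4.13), L-Kyn cut 6 h replicate 3 (3.24, 3.29) or L-Kyn uncut 6 h replicate 2 (1.65, 1.92). In cut tips the AT2G04050 call was lost in 5 of 9 fits that each left out 1 library of set A, at edgeR adjusted p-values of 0.0537 without mock uncut replicate 1, 0.221 and 0.661 without mock cut 6 h replicates 1 and 2, and 0.0613 and 0.0981 without L-Kyn cut 6 h replicates 2 and 3. No fold is given there, as mock is below the floor.

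Genes of mitochondrial signalling were listed beside AOX1A and UPOX. Of 9, 7 were tested, and 6 were positive in uncut tips (median 0.63) and 7 in cut tips (median 1.2) with 6 h of L-Kyn. CRF6, a cytokinin response factor, rose in uncut tips from 1.82 and 3.23 CPM in set A mock to 21.9 and 42.0 CPM (3.70 ± 0.55, adjusted p = 0.00663 in edgeR's test within set A). In cut tips it was also called within set A, with 0 and 0.90 CPM in mock and 11.5, 9.94 and 5.28 CPM with L-Kyn (edgeR adjusted p = 0.0365). The uncut call was lost without mock uncut replicate 1 (3.28) or 2 (4.11) or L-Kyn uncut 6 h replicate 2 (3.15). The cut call, whose mock libraries are below the floor, was lost at edgeR adjusted p-values of 0.0568 without mock uncut replicate 1, 0.308 and 0.295 without mock cut 6 h replicates 1 and 2, and 0.0613 without L-Kyn cut 6 h replicate 2. Of 7 alternative NAD(P)H dehydrogenases, which feed the same electron pathway as AOX1A, 6 were tested and 0 were called with L-Kyn at 6 h in either fit (medians of 0.25 and −0.15 from all libraries). The other 3 AOX genes in the table did not pass the filter.

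For L-Kyn at 6 h within set A, where 0.284% of all genes were called in uncut and 0.373% in cut tips, the remaining lists held 2 called genes. Of 11 tested ABCC transporters other than ABCC3, 0 were called (medians of 0.16 in uncut and 0.33 in cut tips). Of 9 CYP81 genes, 9 were positive in each, and CYP81F4, a hydroxylase of indole glucosinolates, was called in cut tips (1.34 ± 0.27, edgeR adjusted p = 0.0418), a call that held without L-Kyn cut 6 h replicate 1 but not without any other library of set A (1.24 to 1.36). Of 23 tau glutathione transferases 0 were called higher, though 12 were positive in uncut tips (median 0.06) and 21 in cut tips (median 0.45). ERD9, named because it was called, was lower in uncut tips at −2.00. The ERD9 call was lost without mock uncut replicate 1 (−2.06) or 2 (−1.94), or L-Kyn uncut 6 h replicate 1 (−2.24) or 2 (−1.77). Of 9 genes for TGA factors, SCL14 and related NAC regulators, 0 were called. OPR3, the reductase of jasmonate synthesis, was not called, at −0.45 ± 0.32 in uncut and 0.05 ± 0.31 in cut tips.

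Calls of list genes with the cut stand beside the share of all genes called, and nothing is read from their number. With 9.89% of all genes called, the mock cut 3 h contrast called 11 list genes, all higher. They were NDB2 and NDA2 of the 6 NAD(P)H dehydrogenases, UGT76E2 and UGT71D1 of 45 UGT genes, 5 of 24 tau glutathione transferases, 1 of 11 CYP81 genes and 1 of 7 mitochondrial signalling genes. None was called among 12 ABCC transporters, 10 TGA, SCL14 and NAC regulators, 4 DTX exporters and OPR3. Of the 11 list calls, leaving out mock uncut replicate 1 kept 1, mock uncut replicate 2 kept 2 and mock cut 3 h replicate 1 kept 2, and other single libraries kept 6 to 11. Within set B, where 0.0117% of all genes were called, 0 list genes were, and without L-Kyn cut 3 h replicate 2, where 3.25% were called, 4 UGT genes and 3 tau glutathione transferases were. For the cut under L-Kyn at 6 h within set A, where 12.0% of all genes were called, 10 of 23 tau glutathione transferases and 6 of 39 UGT genes were higher. In the fit of all libraries, where 0.605% were called, 0 of 24 and 0 of 45 were. Without L-Kyn uncut 6 h replicate 2, 3 of the 22 list calls in that contrast were kept. GSTU5, 1 of these, gave 14.2 and 11.8 CPM in L-Kyn uncut and 136.1, 217.2 and 146.7 CPM in L-Kyn cut 6 h tips (3.70 ± 0.35, edgeR adjusted p = 8.95e-06).

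**Figure D5:**
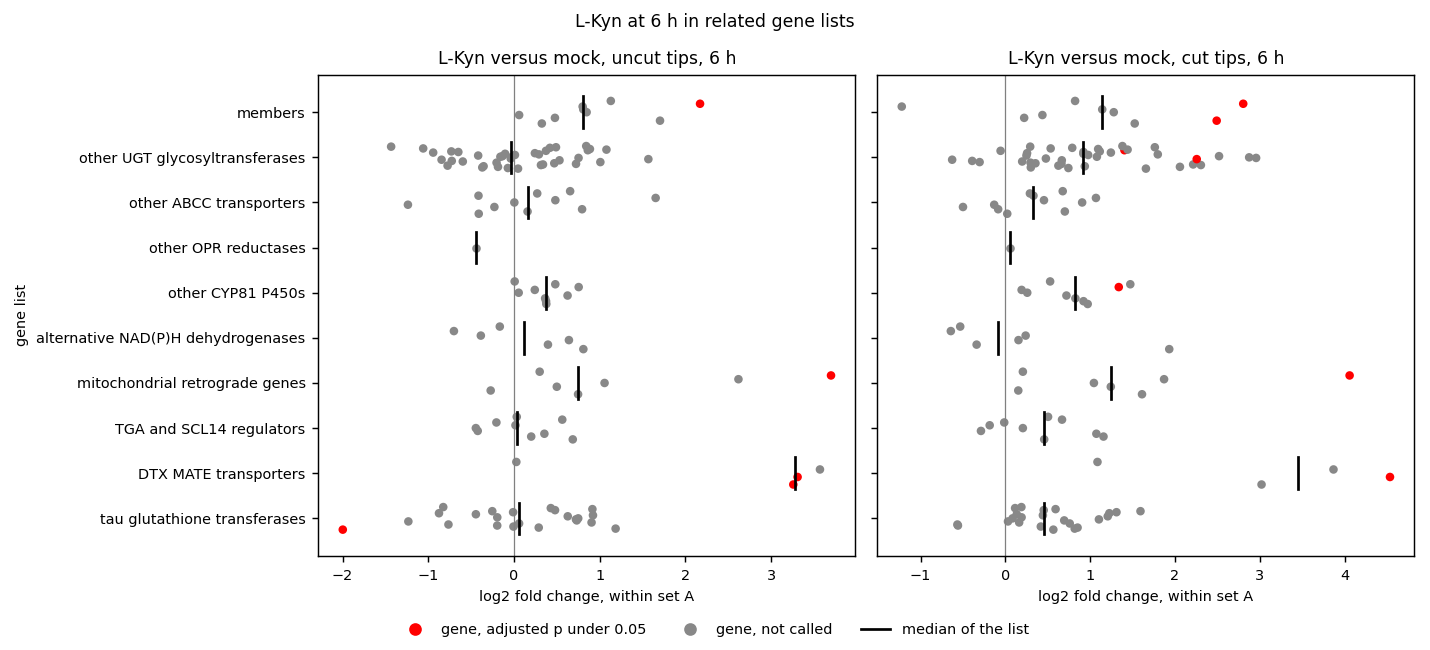
Log2 differences with L-Kyn at 6 h in uncut (left) and cut tips (right), fitted within set A, for the members and the tested genes of each family list, with called genes in red and list medians as black lines. The DTX exporters lie highest, at medians of 3.28 and 3.44 within set A, and the UGT median is −0.03 in uncut and 0.92 in cut tips.

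Marker sums of the tissues in a tip differed between groups beside root cap. Genes of the stem cell niche summed to 155 to 243.5 CPM in mock uncut and 217 to 276 CPM in L-Kyn uncut 6 h tips, and to 75.4 to 81.9 and 82.0 to 94.8 CPM in mock and L-Kyn cut 6 h tips. Root hair genes summed to 0.862 to 28.0 CPM over all libraries, highest in mock cut 6 h tips. Green tissue genes, which a root tip should lack, reached 162 to 291 CPM in L-Kyn uncut 6 h tips, 8.06 to 159.8 CPM in mock uncut, 80.0 to 171 CPM in mock cut 6 h and 35.0 to 196.4 CPM in L-Kyn cut 6 h tips. Their part in the members' values was not tested.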

How the data were processed

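The authors deposited raw read counts per locus, not normalised, for all 18 libraries in 1 table. Bowtie2, HTSeq, DESeq2 and TAIR10 are named, per the submitters' processing notes, with no version in the sources used here. Each column was tied to its sample by title, with 0 columns left without a sample. The 3 lines that name no gene were left out (no feature 3.75% to 15.1% of a library's total, ambiguous 0.0918% to 0.329%, low alignment quality 46.4% to 83.2%), and 21793 of 22093 loci were matched to RefSeq symbols.

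Contrasts came from edgeR 4.0.16 quasi-likelihood fits in R 4.3.3 to all 18 libraries (a mean per group, TMM, filterByExpr by group, 16354 genes), with Benjamini-Hochberg adjustment at 0.05 within a contrast. Standard errors are the log2 difference over the root of F. Mean profiles used log2 CPM with a prior count of 2. Alternatives were RLE scaling, DESeq2 1.42.0, no filter, a mean of 5 CPM, a replicate block, a set term, fits within a set, fits of the compared groups alone, and fits without each of the libraries. Fits within set A with each library left out, and within set B without L-Kyn cut 3 h replicate 2, were chosen after seeing the data. The fit of all libraries was also run on simulated counts with changes in L-Kyn uncut 6 h tips only. These had a common spread for all genes, no difference between sets and no library against its label, so they check neither. Up to 4 genes of a family list were named, those called in most contrasts, or every gene of a list of 6 or fewer, and exceptions are said. The members and lists were chosen with earlier results of these data known. Floors cover counting error only. Upstream sequence was read with Python 3.11.15.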

Additional observations from a re-analysis of the deposited data

Results flagged for a closer look

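For UPOX in cut tips, the libraries with L-Kyn lay on opposite sides of the mean mock level at the 2 times when values are averaged as log2 CPM with a prior count of 2. At 3 h both L-Kyn cut libraries, at 5.68 and 5.78 CPM, lay above the mean log2 level of mock cut 3 h tips, and at 6 h all 3 L-Kyn cut libraries lay below that of mock cut 6 h tips. The mean log2 difference at 6 h minus that at 3 h was −1.47, and this difference between times was not tested. On other scales the direction at 3 h is not the same, since the fit of all libraries gave −0.21 ± 0.84 at 3 h and −1.27 ± 0.91 at 6 h, both negative, and the group means at 3 h were 5.73 CPM with L-Kyn and 6.46 CPM with mock. The counts behind it are 0 to 32 per library, and mock cut 3 h replicate 1, at 14.7 CPM, lies far from the other libraries of its group, at 2.41 and 2.23 CPM.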

How the results depend on the processing

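No value changed sign among those called. Within a set, the median log2 difference of the members with L-Kyn in uncut tips was 0.81 at 6 h (0.84 with a set term, also without L-Kyn cut 3 h replicate 2) and 1.31 at 3 h (1.31 in all 4 fits that use sets). For mock cut tips it was 0.06 at 6 h (set term 0.09, and 0.06 without L-Kyn cut 3 h replicate 2) and 0.55 at 3 h (set term 0.57, and 0.56 in both fits without that library). Differences of L-Kyn between cut and uncut tips had medians of 0.03 at 6 h and −0.19 at 3 h in the fit of all libraries. At 6 h these were 0.33 with a set term, 0.37 with a set term without L-Kyn cut 3 h replicate 2 and 0.38 within a set. At 3 h they were −0.61 with a set term and within a set, and −0.62 in both of those fits without that library. A filter at 5 CPM moved the median of cut against uncut L-Kyn tips at 6 h from 0.20 to 0.53. Counts of members called are given with the genes called in the same fit. With L-Kyn in uncut tips they were 1 within set A (42 of 14764 genes) and 2 by DESeq2 (58 of 14378) at 6 h, and 1 by DESeq2 (125 of 16518) at 3 h. In cut tips at 6 h they were 2 with the set term without L-Kyn cut 3 h replicate 2 (19 of 16934), within set A (55 of 14764) and with only the groups compared (37 of 13481), and 3 by DESeq2 (54 of 5386). Mock cut 6 h had 1 within set A (217 of 14764) and 1 by DESeq2 (46 of 6671). Mock cut 3 h had 0, against 1, in all 4 fits with sets (1179 of 16354 genes with a set term, 2 of 17068 within set B) and with only the groups compared (243 of 13417). For cut against uncut L-Kyn tips at 6 h the number was 1 without a filter (201 of 22093), at 5 CPM (92 of 13059) and with the set term (343 of 16354), 2 with the set term without L-Kyn cut 3 h replicate 2 (1138 of 16934), with only the groups compared (997 of 14607) and by DESeq2 (709 of 13950), and 3 within set A (1766 of 14764). The cause of these changes was not tested.

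Leaving out each of the 18 libraries gave medians of 0.84 (without mock uncut replicate 3) to 1.41 for L-Kyn in uncut tips at 6 h, 0.47 (without the same library) to 1.11 at 3 h, 0.87 to 1.32 in cut tips at 6 h and 0.43 (without L-Kyn cut 3 h replicate 2) to 0.59 at 3 h. They gave 0.09 to 0.50 for mock cut 6 h, −0.25 to 0.28 for mock cut 3 h, the negative end of the latter without mock uncut replicate 3, and −0.02 to 0.54 and −0.14 to 0.17 for cut against uncut L-Kyn tips at 6 h and 3 h. The medians of the difference of L-Kyn between cut and uncut tips ran from −0.20 to 0.33 at 6 h and −0.41 to 0.13 at 3 h. Members called ran from 0 to 1 in each of 5 comparisons and were 0 in the others. Genes called in the mock cut 3 h comparison, 1618, ran from 557 (mock uncut replicate 2 left out) to 2467 (replicate 3 of that group left out), and were 2 within set B and 2180 by DESeq2. Those of cut against uncut L-Kyn tips at 6 h, 99, ran from 0 without L-Kyn cut 6 h replicate 2 to 560 without L-Kyn cut 3 h replicate 1, and were 1766 within set A. In comparisons with 0 calls from all libraries, they reached 452 for L-Kyn in uncut tips at 3 h and 3 for L-Kyn in cut tips at 6 h, both with mock uncut replicate 3 left out. With that mock library left out, 90 genes were called for the difference of L-Kyn between cut and uncut tips at 3 h. For cut against uncut L-Kyn tips at 3 h, 34 genes were called without it. Leaving out mock cut 3 h replicate 3 gave 1 call for the difference at 3 h. Calls also appeared in comparisons without L-Kyn cut 3 h replicate 1 or 2. Those fits leave 1 library in that group, and their counts are not listed here. Of 2464 members' log2 differences under alternatives, 2361 moved by less than the spread between replicates and 103 by more.

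Replicate numbers were not treated as pairs in the fit of all libraries. Libraries of different groups with the same number had deviations correlated from −0.248 to 0.318 over 48 pairs, with a median of 0.0177. With different numbers they were correlated from −0.367 to 0.298 over 90 pairs, with a median of −0.00898. As these pairs share libraries, the values cannot exclude pairing. With the replicate as a block the member calls were those of the fit of all libraries, ABCC3 in mock cut 3 h tips alone. There the fit of all libraries called 9.89% of genes, and nothing is read from that call. Genes called with the block for cut against uncut L-Kyn tips at 6 h were 11 of 16354. Depth limits CYP81D8 and UPOX, whose levels lie near the floor of 3 counts.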
